A study of Danio rerio with 48 samples.

Results

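The gene vgll4l (ENSDARG00000068409) is 1 of the 32520 Ensembl gene IDs counted in single whole zebrafish embryos (Danio rerio), and it was followed by its ID through all 48 embryos. The embryos came from natural spawning of the laboratory strains TL and AB, kept at 28.5 °C, and were taken at 4 stages, 2.25 hours post fertilization (hpf), 3.25 hpf, 4.25 hpf and 5.25 hpf. Biological replicate 2 gave 3 embryos per strain and stage and biological replicate 1 gave another 3, so that each group had 6. No embryo carried a mutation or a treatment in the labels, so TL was set against AB and each later stage against the earlier one. By its title, the series is about laterality defects and how much an early population of cells varies. The comparisons therefore asked when vgll4l appeared, whether its level differed between the strains, and how far single embryos differed from each other.

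Vestigial-like 4 proteins have no DNA-binding domain of their own. They bind TEAD transcription factors and compete there with YAP and TAZ, the coactivators that the Hippo kinases hold in check. In zebrafish, vgll4l is known for expression in the dorsal forerunner cells, a small group of cells ahead of the dorsal margin that later forms the ciliated Kupffer vesicle, the organ that sets left and right. The libraries were made from whole embryos, so the counts carry no position, and fewer expressing cells cannot be told apart from less vgll4l RNA per cell. The name "dorsal forerunner precursors" therefore could not be checked for vgll4l itself. The listed forerunner markers that were called in a step stood at unlike levels at 4.25 hpf, over the 12 embryos of both strains. The levels were 77.0 ± 42.1 CPM for tbx16, 6.40 ± 3.88 CPM for tbxta, 1.59 ± 0.966 CPM for sox32 and 0.249 ± 0.183 CPM for SOX17 (SD, n = 12), beside 39.1 ± 19.5 CPM for vgll4l.

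In CEL-seq2, the method used, RNA with a poly(A) tail receives an embryo-specific barcode at its 3′ end before the material of several embryos is joined and amplified. The embryos had 4931012 to 20036495 counts. A single ID, ENSDARG00000080337, took 11.3% to 60.5% of the counts of an embryo, and levels are given as CPM, counts relative to the library total adjusted by TMM factors, which limits the pull of such an ID. Per the labels, the library index differed from stage to stage and the sequencing runs differed between biological replicates. Stage and library pool therefore cannot be told apart, nor can biological replicate and sequencing run. The labels do not say which embryos shared a clutch, so p-values over embryos measure the spread between these embryos.

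At 2.25 hpf vgll4l was close to absent. The TL embryos, from embryo 1 to 6, had 0, 0, 2, 1, 0 and 1 counts, and the AB embryos had 0, 3, 5, 4, 0 and 6 counts. In the 5 embryos without a count, the 3-count limit allowed up to between 0.227 and 0.308 CPM, a limit that covers counting error only. The levels averaged 0.0618 ± 0.0691 CPM in TL and 0.277 ± 0.25 CPM in AB (SD, n = 6 each), and the strains overlapped. At 3.25 hpf every embryo had at least 1 count. The TL embryos had 12, 20, 2, 4, 1 and 2 counts and the AB embryos had 19, 14, 4, 4, 6 and 8 counts, which gave 0.651 ± 0.687 CPM in TL and 0.848 ± 0.569 CPM in AB. The ranges of 2.25 and 3.25 hpf overlapped, since the highest embryo at 2.25 hpf had 0.583 CPM and the lowest at 3.25 hpf had 0.0503 CPM.

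Between 3.25 and 4.25 hpf vgll4l changed from traces to a well-counted transcript in every embryo. At 4.25 hpf the TL embryos had 879, 610, 401, 285, 163 and 204 counts, and the AB embryos had 308, 246, 285, 213, 402 and 448 counts. The lowest of the 12 embryos, at 17.0 CPM, stood above the highest at 3.25 hpf, at 1.91 CPM. At 5.25 hpf the TL embryos had 1330, 2217, 3467, 838, 1705 and 1398 counts, and the AB embryos had 1880, 1912, 901, 918, 2333 and 1606 counts. The lowest embryo at 5.25 hpf had 148 CPM and the highest at 4.25 hpf had 74.1 CPM, so these stages did not overlap either. The mean over 12 embryos at 4.25 hpf was 18.7% of that at 5.25 hpf.

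**Figure D1:**
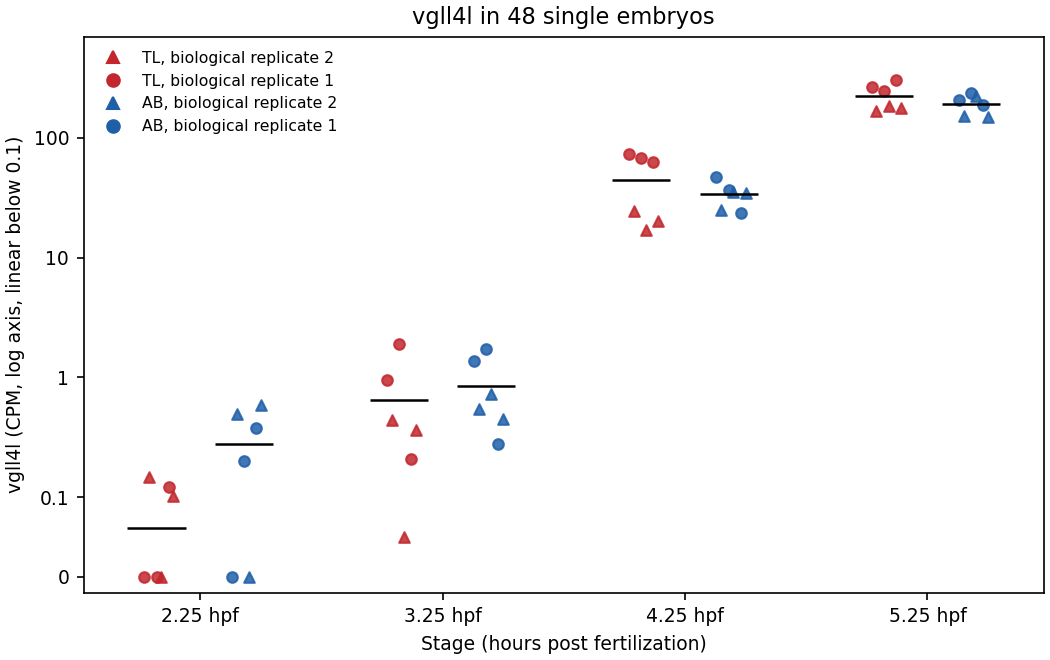
Level of vgll4l (vertical axis, CPM, log scale that turns linear below 0.1) in each of the 48 embryos by stage (horizontal axis, hpf), with TL in red left of AB in blue. Triangles are biological replicate 2, circles are biological replicate 1, and black lines are the means of 6 embryos. The stages of 3.25 and 4.25 hpf are separated by a gap between 1.91 and 17.0 CPM, and in TL at 4.25 hpf the triangles lie apart from the circles.

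Each step was tested with edgeR's quasi-likelihood test in a fit of all 48 embryos, averaged over the strains. A gene was called when its Benjamini-Hochberg adjusted p was under 0.05 and its log2 fold change was at least 1 in size. The step from 2.25 to 3.25 hpf gave a log2 fold change of 2.36 (SE 0.56, adjusted p = 0.0114) and was called, as were 0.802% of the 14470 genes tested. This call rested on few reads, 22 counts over 12 embryos at 2.25 hpf and 96 over 12 at 3.25 hpf. It was lost without biological replicate 1, where edgeR gave 1.02 (adjusted p = 0.444), in TL embryos alone (3.16, adjusted p = 0.26), in AB embryos alone (1.54, adjusted p = 0.474), and without TL embryo 2 of 3.25 hpf (2.00, adjusted p = 0.0717). The step from 3.25 to 4.25 hpf gave 5.73 (SE 0.31, adjusted p = 1.58e-19 by edgeR), in a step where 5.22% of genes were called. The step from 4.25 to 5.25 hpf gave 2.43 (SE 0.23, adjusted p = 1.06e-11 by edgeR), in a step where 14.1% of genes were called. These later steps were called in every alternative that was run.

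The strains did not differ detectably in the size of any step. The TL step minus the AB step was 1.64 (SE 1.19) from 2.25 to 3.25 hpf, 0.75 (SE 0.65) from 3.25 to 4.25 hpf and −0.17 (SE 0.45) from 4.25 to 5.25 hpf on the log2 scale. The unadjusted p-values of edgeR's interaction test were 0.177, 0.258 and 0.699, and its adjusted p-values were at least 0.999. Over all genes this interaction called 0%, 0.00691% and 0% of 14470 genes at the 3 steps by edgeR, and 298, 444 and 832 genes had an unadjusted p under 0.05. Some genes reach such a p where nothing differs, so these counts are no result. The standard errors leave room for differences of about a whole log2 unit, and for larger ones in the steps up to 4.25 hpf.

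Genes of the outer cell layers and of the embryo margin changed over the same steps. The enveloping layer, the flat epithelium that covers the blastoderm, and the yolk syncytial layer, the nucleated yolk surface below it, are neighbours of the dorsal forerunner cells. In the step from 2.25 to 3.25 hpf, called genes were klf17 (log2 fold change 5.15) and grhl3 (5.14), transcription factors of the enveloping layer, mxtx2 (5.91) and dharma, homeobox genes of the yolk syncytial layer, and lft1 (1.84) and lft2 (5.41), antagonists of Nodal ligands. Of the listed sets, 2 of 9 enveloping layer genes, 2 of 5 yolk syncytial genes, 2 of 9 Nodal genes and 0 of 7 forerunner genes tested were called higher in that step, beside 0.767% of all genes. The gene dharma had 0 counts in all 12 embryos at 2.25 hpf and 145 counts at 3.25 hpf, at least 3.99-fold higher than the 3-count limit per embryo. Over the same 12 embryos of 2.25 hpf klf17 had 32 counts, grhl3 49, mxtx2 27, lft1 27 and lft2 11, so their folds also start from few reads. Genes at or near 0 at an early stage passed the filter on low counts through later stages, so the list counts describe these genes and are no support for a list.

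In the step from 3.25 to 4.25 hpf, in which vgll4l had its largest change, 7 of 9 enveloping layer genes were called higher, beside 4.42% of all genes. They were krt18a.1 (6.76), krt4 (5.22), krt92 (4.48) and krt8 (3.19), keratins of the epithelium, the tight junction gene cldne (6.27), klf17 (3.17) and grhl3 (3.46). The median log2 change of the 9 genes tested was 3.46, beside a median of 0.00134 over all genes. Members near 0 at 3.25 hpf, such as krt92 with 7 counts over 12 embryos, passed the filter through later stages. This contrast is therefore no support for the list. Of the yolk syncytial genes, 4 of 5 were called, namely mxtx1 (6.11), dharma (2.59), mxtx2 (2.56) and SLC26A1. For SLC26A1 no fold is given, since it had 0 counts in all 12 embryos at 3.25 hpf and 25 counts at 4.25 hpf, under the 3-count limit per embryo at both stages. Of the Nodal genes, 6 of 9 were called: the ligands ndr1 (2.11) and ndr2 (2.63), the antagonists lft1 (3.10) and lft2 (2.98), and the target transcription factors mixl1 (1.77) and GATA5. The gene GATA5 had 3 counts at 3.25 hpf and 75 counts at 4.25 hpf, a ratio of pooled CPM of 29.4 with an exact 95% interval of 9.69 to 146 that covers counting error only. Of the forerunner and Kupffer vesicle genes, 3 of 7 were called, namely the T-box genes tbx16 (6.83) and tbxta (4.79), which are expressed around the whole margin, and sox32 (2.24), which specifies endoderm and forerunner cells in zebrafish.

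In the step from 4.25 to 5.25 hpf 7 of 9 enveloping layer genes were called higher beside 7.35% of all genes. They were cyt1 (6.51), krt92 (6.50), krt5 (6.18), krt8 (5.08), krt4 (4.28), cldne (3.51) and krt18a.1 (3.48), of which cyt1 and krt5 had not been called in the step before. Of the forerunner list, sox32 (4.96), tbxta (3.13), tbx16 (2.98) and SOX17 (2.7) were called, 4 of 7 tested. The Nodal list had 5 of 9 called, GATA5 (4.70), mixl1 (3.20), lft1 (1.87), the co-receptor tdgf1 (1.52) and ndr2 (1.5). The yolk syncytial list had 3 of 5 called, HNF4A (6.23), SLC26A1 (4.86) and mxtx1 (2.90). In the fit of 4.25 hpf alone, cyt1, krt5, SOX17, GATA5, HNF4A and SLC26A1 did not pass the filter on low counts. Their folds therefore start from few counts, such as 25 in all for SLC26A1 and 75 for GATA5. Such members passed the filter of the steps through the later stage, so these list counts are no support for a list.

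Neither tead1a, a TEAD factor, nor YAP1, which competes with vestigial-like 4 proteins for TEAD, was called in any step. A count of 0 among 2 is near the background given below for the Hippo genes. From 4.25 to 5.25 hpf both had an unadjusted p under 0.05 by edgeR, 1 higher and 1 lower, as had 7019 of all 14470 genes tested. YAP1, the coactivator, was already at 78.2 ± 26.6 CPM in TL and 94.5 ± 23.2 CPM in AB at 2.25 hpf, and at 102 ± 25.2 CPM in TL and 148 ± 28.5 CPM in AB at 5.25 hpf (SD, n = 6 each). The TEAD gene tead1a was at 9.13 ± 1.94 CPM in TL and 9.68 ± 2.93 CPM in AB at 2.25 hpf, and at 6.24 ± 2.25 CPM in TL and 7.24 ± 2.07 CPM in AB at 5.25 hpf. The other matched members, vgll2b, VGLL3 and WWTR1, had at most 18 counts in all over the 12 embryos of any stage and were not tested. None of the 11 Hippo pathway genes tested, which include the kinases STK3 and LATS1 and the membrane proteins nf2a and nf2b, was called in any step, and their log2 changes lay between −0.85 and 0.65. With 0.802%, 5.22% and 14.1% of all genes called in the 3 steps, a count of 0 among 11 is near the background and is no result about the pathway. An unadjusted p under 0.05 by edgeR was reached by 3, 4 and 8 of the 11 in the 3 steps, each with a log2 change under the fold threshold, such as SAV1 (−0.71) and nf2b (0.65) from 4.25 to 5.25 hpf. Of all 14470 genes tested, 1619, 3976 and 7019 reached such a p in the 3 steps. Of 2 tested genes in the list of YAP and TEAD targets, AJUBA was lower at 5.25 than at 4.25 hpf, with a log2 change of −1.10 (adjusted p = 6.49e-08 by edgeR), as were 6.79% of all genes. The listed symbols vgll4a, vgll4b, tead1b, tead3a, tead3b, foxj1a and cxcr4a were among those that did not match exactly 1 ID. A symbol was left out both when no ID and when several IDs carried it, so these symbols are not analysed here as list members.

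**Figure D2:**
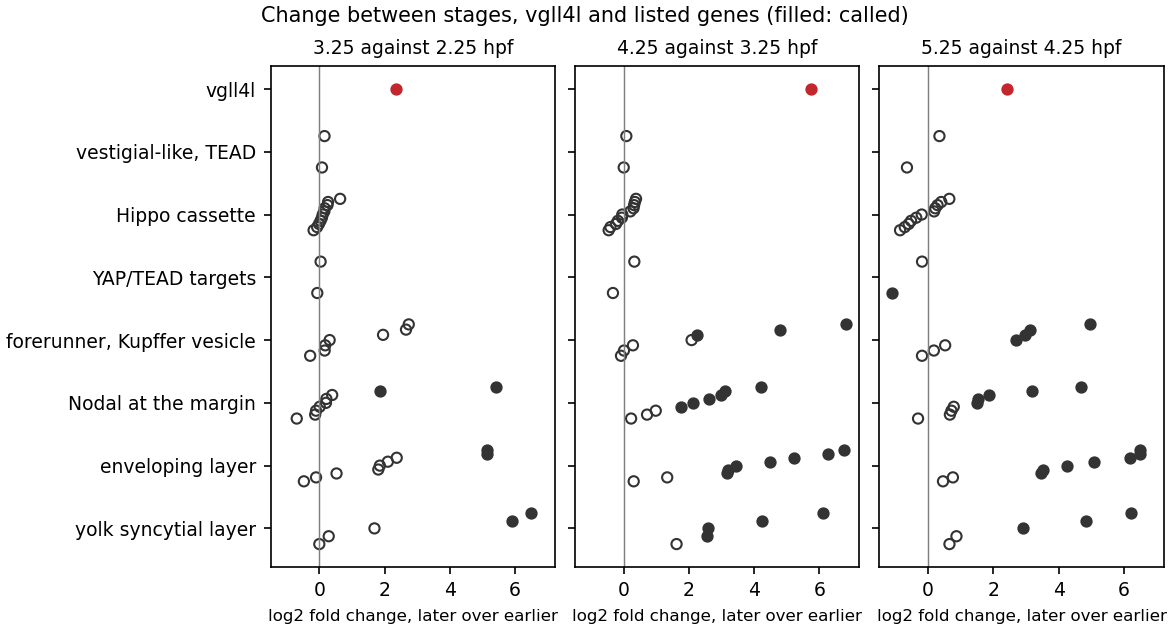
Log2 fold change of the later over the earlier stage (horizontal axis) for vgll4l in red and the listed genes in black (vertical axis, one row per list), at each of the 3 steps, from the fit of 48 embryos. Each circle is a gene, filled where it was called. In the middle panel vgll4l sits at 5.73 with keratins, tbx16 and mxtx1 near it, while the Hippo genes stay between −0.46 and 0.38; the fitted values of dharma in the first step and SLC26A1 in the second start from 0 counts.

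The symbol VGLL4 is carried by both ENSDARG00000094332 and ENSDARG00000103730, which were added to the description after the data were seen. Close copies may have shared reads, so their counts are uncertain. Unlike vgll4l, ENSDARG00000094332 was counted in every embryo from the first stage, and it was called higher in TL at the first 3 stages, and with the replicate block at 5.25 hpf too (1.62, adjusted p = 0.0178 by edgeR). Within replicate 2 it was called at all 4 stages, with log2 fold changes between 2.001 and 2.51, and within replicate 1 at 4.25 hpf alone, at 1.74. Its level was 22.9 ± 7.43 CPM in TL embryos and 8.56 ± 8.09 CPM in AB embryos at 2.25 hpf, and 27.4 ± 5.61 CPM in TL and 9.48 ± 10.01 CPM in AB at 3.25 hpf (SD, n = 6 each). It was 22.9 ± 5.80 CPM in TL and 5.91 ± 1.69 CPM in AB at 4.25 hpf, and 39.9 ± 10.5 CPM in TL and 15.97 ± 15.5 CPM in AB at 5.25 hpf. The log2 fold change of TL over AB was 1.41 at 2.25 hpf, 1.52 at 3.25 hpf and 1.96 at 4.25 hpf (adjusted p = 0.0243, 0.023 and 2.02e-05 by edgeR), at stages where 17.8%, 15.7% and 20.4% of all genes were called, and this VGLL4 ID also rose by 1.11 from 4.25 to 5.25 hpf (adjusted p = 0.00366 by edgeR). At 4.25 hpf all 6 TL embryos, with 16.2 to 30.8 CPM, were above all 6 AB embryos, with 3.87 to 8.65 CPM. At 2.25, 3.25 and 5.25 hpf single AB embryos reached the TL range, at 24.99, 29.8, 35.2 and 36.5 CPM, while the other AB embryos had 8.70 CPM or less. ENSDARG00000103730, the other VGLL4 ID, was called in no strain comparison over both replicates and in no step, since its change of 0.78 from 4.25 to 5.25 hpf (adjusted p = 0.00109 by edgeR) was under the fold threshold. Within replicate 1 at 4.25 hpf it was called higher in TL (1.03).

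Over both replicates vgll4l itself was not called between the strains. It was called higher in TL at 4.25 hpf within replicate 1 (0.92, adjusted p = 0.00649 by edgeR) and in a model with a developmental position score and the replicate (0.66, adjusted p = 0.0197), both described below. In that model score and strain cannot be fully told apart. At 4.25 hpf the TL embryos had 24.6, 17.0 and 20.3 CPM in biological replicate 2 and 74.1, 67.7 and 62.6 CPM in biological replicate 1. The AB embryos had 25.2, 35.3 and 34.4 CPM in replicate 2 and 47.5, 36.7 and 23.5 CPM in replicate 1. The means were 44.4 ± 26.4 CPM in TL and 33.8 ± 8.71 CPM in AB (SD, n = 6 each), with all AB embryos inside the range of TL. The log2 fold change of TL over AB was 0.40 (SE 0.34, adjusted p = 0.451 by edgeR), at a stage where 20.4% of 11945 genes were called. At 5.25 hpf the TL embryos had 168, 186 and 179 CPM in replicate 2 and 265, 247 and 306 CPM in replicate 1. The AB embryos had 154, 222 and 148 CPM in replicate 2 and 206, 238 and 190.0 CPM in replicate 1, so the strains overlapped. The means were 225 ± 55.8 CPM in TL and 193 ± 36.3 CPM in AB, and the log2 fold change was 0.23 (SE 0.18, adjusted p = 0.451 by edgeR), with 10.7% of 11602 genes called.

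At 2.25 and 3.25 hpf vgll4l did not pass the filter on low counts. A two-sided exact permutation test on log2 CPM over all labellings of 6 against 6 embryos, added after the filter result was known, gave a mean difference of −0.71 (p = 0.102) at 2.25 hpf and −0.48 (p = 0.398) at 3.25 hpf. The same exact permutation test gave 0.18 (p = 0.662) at 4.25 hpf and 0.21 (p = 0.281) at 5.25 hpf, and adjusted over the 4 stages the lowest p was 0.407. The smallest p that this test allows is 0.00216. With labels exchanged only within biological replicates, the exact permutation p was 0.12, 0.31, 0.59 and 0.125 at the 4 stages. Adjusted over the 4 stages the lowest of these was 0.25, and the smallest p possible within replicates is 0.005. At 2.25 hpf, 18 of the 22 counts were in AB embryos, a difference that these counts could not resolve.

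The strain difference at 4.25 hpf ran in opposite directions in the 2 biological replicates. In replicate 2 all 3 TL embryos, with 17.0 to 24.6 CPM, were below all 3 AB embryos, with 25.2 to 35.3 CPM, and edgeR gave a log2 fold change of −0.63 (SE 0.23, adjusted p = 0.128), with 8.41% of genes called. In replicate 1 all 3 TL embryos, with 62.6 to 74.1 CPM, were above all 3 AB embryos, with 23.5 to 47.5 CPM, and edgeR gave 0.92 (SE 0.21, adjusted p = 0.00649), with 23.2% of genes called. The difference between the replicates was tested as an interaction, an analysis added after these values were seen. It gave −1.54 (SE 0.33, unadjusted p = 0.000295, adjusted p = 0.054 by edgeR) and so missed the threshold, at which 0.352% of genes were called. The edgeR interaction passed without AB embryo 1 (−1.81, adjusted p = 0.025), AB embryo 4 (−1.68, adjusted p = 0.0449), TL embryo 4 (−1.71, adjusted p = 0.0407) or TL embryo 6 (−1.53, adjusted p = 0.0453). Without any one of the other embryos it missed the threshold. Over all 12 leave-outs the edgeR interaction ran from −1.81 to −1.31 and its adjusted p from 0.025 to 0.168. DESeq2 gave −1.54 with an adjusted p of 0.00192, and the exact permutation of replicate within strain gave −1.59 with p = 0.065 over 400 labellings. These labellings assume no replicate difference in either strain, so this permutation p is no exact test of the interaction alone. At 5.25 hpf the log2 fold change of TL over AB was 0.06 in replicate 2 (adjusted p = 0.899, 3.52% of genes called) and 0.37 in replicate 1 (adjusted p = 0.369, 3.93% called) by edgeR. The interaction was −0.31 (SE 0.27) with 0% of genes called by edgeR. An unadjusted p under 0.05 was reached by 326 of 11602 genes, which can occur where nothing differs.

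**Figure D3:**
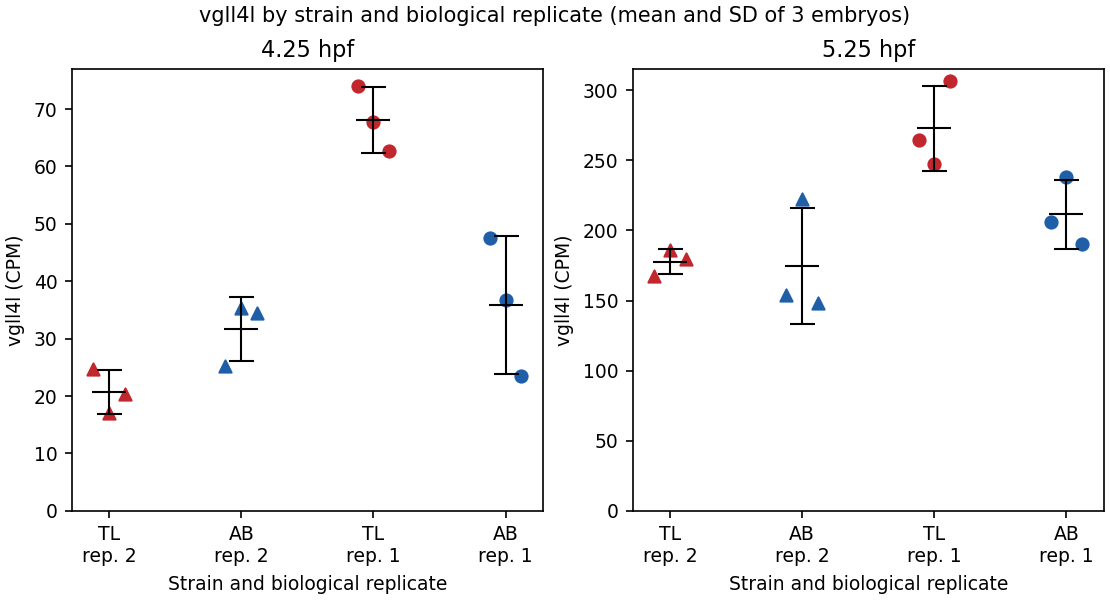
Level of vgll4l (vertical axis, CPM from 0) in each embryo at 4.25 and 5.25 hpf, by strain and biological replicate (horizontal axis), with TL in red left of AB in blue; lines and bars are the mean and SD of 3 embryos. At 4.25 hpf TL averages 20.7 CPM in replicate 2 and 68.1 CPM in replicate 1, whereas AB averages 31.6 CPM in replicate 2 and 35.9 CPM in replicate 1.

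Across both strains vgll4l was lower in biological replicate 2 than in biological replicate 1 at the later stages. At 4.25 hpf the 12 embryos averaged 26.1 ± 7.4 CPM in replicate 2 and 52.0 ± 19.6 CPM in replicate 1 (SD, n = 6 each), a log2 fold change of −0.96 (SE 0.26, adjusted p = 0.0401 by edgeR), with 6.58% of genes called. The averages at 5.25 hpf were 176 ± 26.8 CPM in replicate 2 and 242 ± 41.7 CPM in replicate 1, a log2 fold change of −0.44 (SE 0.13, adjusted p = 0.0389 by edgeR), with 13.6% of genes called. The exact permutation test over all labellings gave p = 0.0216 and p = 0.0108, each 0.0433 when adjusted over the 4 stages. With labels exchanged only within strains, the exact permutation p was 0.04 at 4.25 hpf and 0.015 at 5.25 hpf, or 0.08 and 0.06 after that adjustment. Both edgeR calls stood close to the threshold. At 4.25 hpf the call was lost without AB embryo 1, without AB embryo 4 or without any one of the 6 TL embryos, where the log2 fold change lay between −0.97 and −0.80 and the adjusted p between 0.0623 and 0.0895. At 5.25 hpf it was lost without AB embryo 2, 4 or 6 or without any one of the 6 TL embryos, where the log2 fold change lay between −0.45 and −0.38 and the adjusted p between 0.0642 and 0.0882.

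At 4.25 hpf the replicate difference was called in TL embryos alone and not in AB embryos alone. In TL biological replicate 2 averaged 20.7 ± 3.82 CPM and replicate 1 averaged 68.1 ± 5.74 CPM (SD, n = 3 each), and edgeR on the TL embryos alone gave −1.74 (SE 0.18, adjusted p = 0.000808), with 2.79% of genes called. In AB the averages were 31.6 ± 5.62 CPM in replicate 2 and 35.9 ± 12.01 CPM in replicate 1, and edgeR gave −0.18 (SE 0.25, adjusted p = 0.742), with 3.86% of genes called. At 5.25 hpf TL averaged 178 ± 9.09 CPM in replicate 2 and 273 ± 30.3 CPM in replicate 1, without overlap, at −0.61 (adjusted p = 0.0841 by edgeR, 2.58% of genes called). AB averaged 175 ± 41.3 CPM in replicate 2 and 211 ± 24.3 CPM in replicate 1, with overlap, at −0.28 (adjusted p = 0.528 by edgeR, 1.25% of genes called). The test of the difference between the strains is the interaction given above.

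Some markers of the outer layers were, like vgll4l, lower in replicate 2 over both strains. In AB alone at 4.25 hpf vgll4l was not called (−0.18 by edgeR). There 2 of 6 enveloping layer genes tested were called lower, beside 3.86% of all genes called in either direction. The transcription factors klf17 and grhl3 were not called between the replicates at this stage. At 4.25 hpf, 5 of 7 enveloping layer genes tested were called lower in replicate 2, beside 2.96% of all genes: krt92 (−2.87), krt4 (−2.60), krt18a.1 (−2.004), krt8 (−1.97) and cldne (−1.26). The summed level of the 9 enveloping layer markers was 203 to 243 CPM in replicate 2 and 486 to 597 CPM in replicate 1 in TL, and 294 to 441 CPM in replicate 2 and 383 to 630 CPM in replicate 1 in AB. The 9 forerunner and Kupffer vesicle genes summed to 276 to 335 CPM in replicate 2 and 366 to 391 CPM in replicate 1 of TL, and to 297 to 330 CPM in replicate 2 and 385 to 416 CPM in replicate 1 of AB. This list already summed to 186 to 228 CPM in TL and 165 to 216 CPM in AB at 2.25 hpf. Most of that came from cdh1 (117 CPM over 12 embryos), CNPY1 (70.5 CPM) and ITGAV (12.6 CPM). The sum is therefore no measure of forerunner cells. The 5 yolk syncytial markers summed to 42.2 to 79.6 CPM in replicate 2 and 85.1 to 114 CPM in replicate 1 of TL, and to 68.0 to 97.7 CPM in replicate 2 and 101 to 176 CPM in replicate 1 of AB. No gene of these 3 lists was at 0 in all 12 embryos at this stage. In TL the keratin krt4 had 2.51, 3.34 and 2.98 CPM in replicate 2 and 41.8, 45.6 and 57.3 CPM in replicate 1, while in AB it had 14.3, 23.2 and 11.8 CPM in replicate 2 and 45.2, 58.5 and 26.7 CPM in replicate 1. The interaction of strain and replicate was called for krt4 (−2.63, adjusted p = 0.0161), krt8 (−2.53, adjusted p = 0.00513) and krt18a.1 (−1.87, adjusted p = 0.026 by edgeR), the same sign as the interaction of vgll4l. In TL the summed ranges of the replicates did not overlap for any of the 3 lists, and in AB those of the enveloping layer list did. The part of the enveloping layer, the yolk syncytial layer or forerunner cells in the vgll4l difference was not tested.

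Among the other lists at 4.25 hpf, tbx16 (−1.57) and tbxta (−1.44) of the forerunner list, mixl1 (−1.47), ndr2 (−1.26) and tdgf1 (−0.56) of the Nodal list, mxtx1 (−1.56) of the yolk syncytial list, and nf2b (−0.74) and mob1ba (−0.51) of the Hippo list were called lower in replicate 2. None of the 39 listed genes tested was called higher, beside 3.62% of all genes, a count near that background, and 2 of them had a positive change with an unadjusted p under 0.05 by edgeR. In either direction 2734 of all 11945 genes tested had such a p. In TL alone the called genes of these lists were krt4 (−4.05), krt8 (−3.31), krt18a.1 (−2.96), tbx16 (−2.17), tbxta (−1.76), mxtx1 (−1.74), cldne (−1.62), mixl1 (−1.56) and tdgf1 (−0.82). In AB alone they were krt4 (−1.40), mixl1 (−1.38), krt18a.1 (−1.07), tbx16 (−0.99) and nf2b (−0.81). At 5.25 hpf, 7 of 9 enveloping layer genes were called lower in replicate 2, beside 6.84% of all genes, from cyt1 (−3.55), krt5 (−3.06) and krt92 (−2.49) to krt4 (−1.66), krt8 (−1.59), krt18a.1 (−1.49) and cldne (−1.28). Of the forerunner list tbxta (−1.71), sox32 (−1.67), tbx16 (−0.99) and the adhesion gene cdh1 (−0.39) were lower in replicate 2, of the Nodal list mixl1 (−1.26), GATA5 (−0.9995) and tdgf1 (−0.42), and of the yolk syncytial list SLC26A1 (−1.83) and HNF4A (−1.31). AJUBA (0.87) and the signal transducer SMAD2 (0.65) were called higher there, beside 6.79% of all genes. In TL alone at 5.25 hpf the same 7 enveloping layer genes were called lower, from cyt1 (−3.68), krt5 (−3.43) and krt92 (−2.40) to krt8 (−1.59), krt4 (−1.53), krt18a.1 (−1.38) and cldne (−0.96), with HNF4A (−1.97), tbxta (−1.75), sox32 (−1.43), mixl1 (−1.35) and tbx16 (−1.14). In AB alone the 7 enveloping layer genes were called lower and no other listed gene, at −3.45 for cyt1, −2.72 for krt5, −2.60 for krt92, −1.79 for krt4, −1.62 for krt18a.1, −1.61 for cldne and −1.60 for krt8. At 2.25 hpf nf2b (−0.73) was called lower in replicate 2 and AJUBA (0.43) higher, beside 8.08% of all genes, and AJUBA in AB alone (0.48), beside 6.18%. At 3.25 hpf none of 29 listed genes was called between the replicates by edgeR, beside 1.07% of all genes, while 10 had an unadjusted p under 0.05. Such a p was reached by 1954 of all 11980 genes tested.

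**Figure D4:**
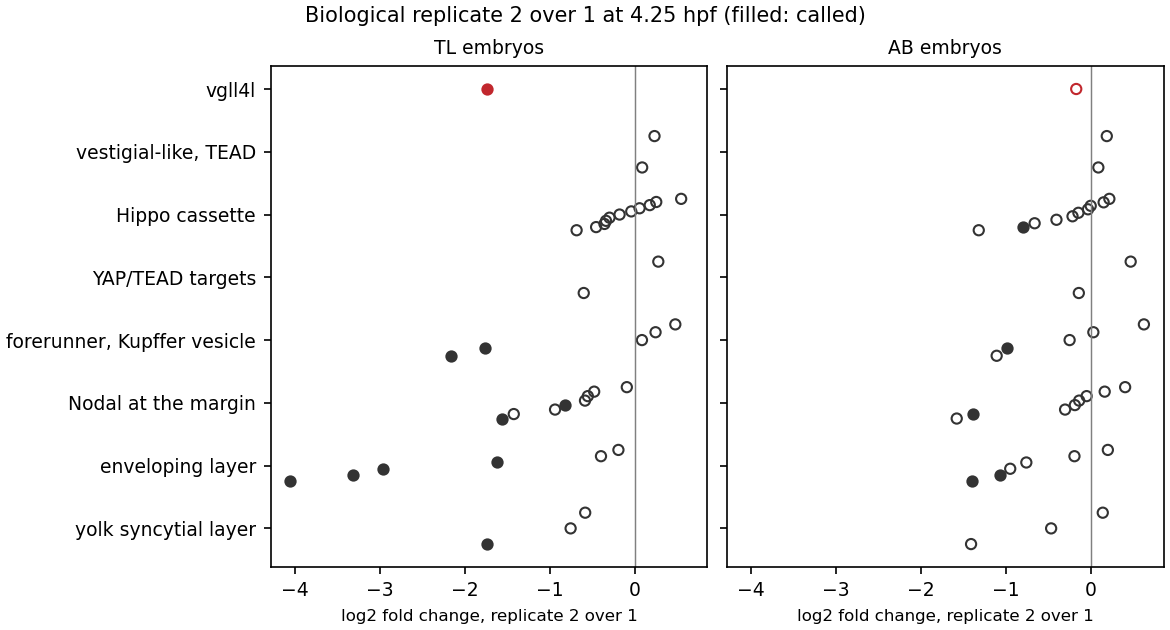
Log2 fold change of biological replicate 2 over replicate 1 at 4.25 hpf (horizontal axis) for vgll4l in red and the listed genes in black (vertical axis, one row per list), in TL embryos on the left and AB embryos on the right. Filled circles are called genes. In TL vgll4l stands at −1.74 and krt4 at −4.05, and in AB they stand at −0.18 and −1.40.

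Embryos of 1 nominal stage can differ in how far they have developed. Each embryo was given a developmental position score, the mean log2 CPM of the 200 genes that rose most significantly in a step minus that of the 200 that fell most significantly, with vgll4l left out. At 5.25 hpf the step from 4.25 to 5.25 hpf was used, and at 4.25 hpf the mean over that step and the step before it. The genes were chosen on these same embryos. At 4.25 hpf the scores of replicate 2 ran from −2.59 to −2.25 in TL and from −1.93 to −1.54 in AB, and those of replicate 1 from −1.13 to −1.06 in TL and from −1.42 to −0.997 in AB. The replicates therefore did not overlap in score, and the TL embryos of replicate 2, whose mean vgll4l was the lowest of the 4 groups, had the lowest scores. The scores of 5.25 hpf ran from 0.397 to 1.54 in replicate 2 and from 2.03 to 2.95 in replicate 1. With the score as a covariate, the replicate difference of vgll4l was 0.79 (adjusted p = 0.479 by edgeR) at 4.25 hpf and 0.11 (adjusted p = 0.945) at 5.25 hpf, and the interaction at 4.25 hpf was −0.75 (adjusted p = 0.504). Because score and replicate coincide, they cannot be told apart. With the score and the replicate both in the model, the strain difference at 4.25 hpf was 0.66 (SE 0.18, adjusted p = 0.0197 by edgeR) and passed the threshold, whereas at 5.25 hpf it was 0.31 (adjusted p = 0.155). In replicate 2 at 4.25 hpf the scores of TL and AB did not overlap. Score and strain therefore cannot be fully told apart in the call at 4.25 hpf.

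Within a biological replicate, vgll4l and the score were compared over 6 embryos. At 4.25 hpf Pearson's r was 0.802 in replicate 2 (Spearman's rho 0.886) and 0.770 in replicate 1 (rho 0.486, and r 0.334 with 50 genes each way in the score), with exact permutation p-values for r of 0.0597 in replicate 2 and 0.0917 in replicate 1. At 5.25 hpf r was 0.608 in replicate 2 (rho 0.371) and −0.141 in replicate 1 (rho −0.257), with exact permutation p-values for r of 0.203 in replicate 2 and 0.801 in replicate 1. The exact permutation p-values for rho were 0.0333 in replicate 2 and 0.356 in replicate 1 at 4.25 hpf, and 0.497 in replicate 2 and 0.658 in replicate 1 at 5.25 hpf. None of the 8 values passed after Benjamini-Hochberg adjustment, where the lowest was 0.239. Without the 2 embryos farthest from the median score, r was 0.696 in replicate 2 and 0.512 in replicate 1 at 4.25 hpf, and 0.808 in replicate 2 and 0.181 in replicate 1 at 5.25 hpf. In replicate 2 at 4.25 hpf the TL and AB embryos lay in separate score ranges, so score and strain cannot be told apart in that r.

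**Figure D5:**
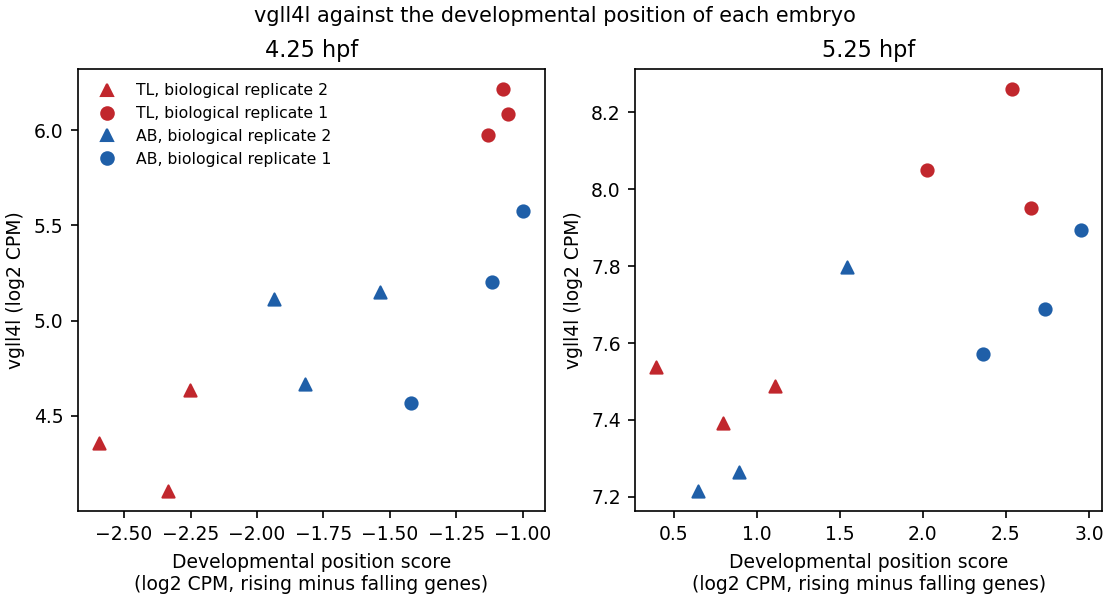
Level of vgll4l (vertical axis, log2 CPM) against the developmental position score (horizontal axis, difference of mean log2 CPM) of each embryo at 4.25 and 5.25 hpf, TL in red and AB in blue, triangles for biological replicate 2 and circles for replicate 1. Scores of the replicates do not overlap at either stage, and at 4.25 hpf the TL triangles have the lowest scores, from −2.59 to −2.25.

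The spread between embryos depended on whether the biological replicate was taken into account. After each replicate's mean was removed, the SD of log2 CPM at 4.25 hpf was 0.206 in TL and 0.408 in AB, a difference of −0.203 (two-sided permutation p = 0.2 over 400 exchanges of strain within replicates). At 5.25 hpf it was 0.123 in TL and 0.256 in AB, a difference of −0.133 (permutation p = 0.07). The values were centred on their own group mean before the exchange and not again after it. The permutation p-values of the spread are therefore approximate, not exact, and can be too small. Neither difference passed the threshold, and the smallest p this test allows is 0.005. At 5.25 hpf the difference was −0.172 without AB embryo 1 (permutation p = 0.015), −0.183 without TL embryo 3 (permutation p = 0.045) and −0.0120 without AB embryo 5 (permutation p = 0.8), and at 4.25 hpf it was −0.0622 without AB embryo 3 (permutation p = 0.35). With the replicate means left in (no replicate block), the SD at 4.25 hpf was 0.963 in TL and 0.373 in AB, a difference of 0.590 with a permutation p of 0.00216, the smallest that all labellings of 6 against 6 allow. At 5.25 hpf it was then 0.354 in TL and 0.279 in AB, a difference of 0.0744 (permutation p = 0.318). In TL at 4.25 hpf the replicate means lay apart, with embryos at 17.0 to 24.6 CPM in replicate 2 and at 62.6 to 74.1 CPM in replicate 1. The permutation p without the block therefore takes in this offset between replicates. It does not measure the spread between embryos alone.

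Counting error was smaller than the spread between embryos at the later stages. The square root of the count gave an error of 3.37% to 7.83% of the value per embryo at 4.25 hpf and of 1.70% to 3.45% at 5.25 hpf. The coefficient of variation between the 3 embryos of a replicate at 4.25 hpf was 18.5% in replicate 2 and 8.42% in replicate 1 of TL, and 17.8% in replicate 2 and 33.5% in replicate 1 of AB. At 5.25 hpf it was 5.12% in replicate 2 and 11.1% in replicate 1 of TL, and 23.6% in replicate 2 and 11.5% in replicate 1 of AB. Expressed as edgeR's biological coefficient of variation over the strain and replicate groups, vgll4l had 0.216 at 4.25 hpf, against 0.190 on the trend of genes at its level, and 0.135 at 5.25 hpf, against 0.219 on the trend. Of the genes tested, 43.8% at 4.25 hpf and 89.0% at 5.25 hpf had a higher value than vgll4l, a description of these embryos with no test. By strain at 4.25 hpf it was 0.131 in TL, against 0.174 on the trend, and 0.268 in AB, against 0.204 on the trend, so vgll4l lay below the trend in TL and above it in AB. The value at 5.25 hpf lay below the trend in both strains, at 0.0784 against 0.206 in TL and 0.175 against 0.225 in AB.

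The genes whose levels over the 48 embryos were most like those of vgll4l were tbx16 (Pearson's r = 0.989 of log2 CPM), akap12b (0.986), ftr82 (0.985), asb11 (0.984) and si:dkey-11o15.10 (0.983), among 12020 genes compared, whose median r was 0.0103. These embryos share stage, replicate and library pool, and every gene with the same steps between stages gains a high r over 48 embryos, so it is given with no p. In the step from 3.25 to 4.25 hpf their log2 changes were 6.83, 5.45, 4.82, 6.07 and 5.10. tbx16, whose product patterns the mesoderm of the margin, had 44.0, 19.3 and 15.5 CPM in replicate 2 and 128, 127 and 96.4 CPM in replicate 1 of TL at 4.25 hpf, and 45.5, 56.2 and 63.3 CPM in replicate 2 and 120, 125 and 83.8 CPM in replicate 1 of AB. Unlike vgll4l, tbx16 was called lower in replicate 2 in AB as well (−0.99, adjusted p = 0.0191 by edgeR), and in TL its log2 change was −2.17 (adjusted p = 0.00815). The interaction of strain and replicate for tbx16 was −1.15 (adjusted p = 0.251 by edgeR) and did not pass. That of vgll4l (−1.54, adjusted p = 0.054 by edgeR) had the same sign and did not pass either. The levels of tbx16 and vgll4l were not tested against each other. Of the other 4 genes, akap12b (−1.30), ftr82 (−1.15) and asb11 (−1.45) were called lower in replicate 2 at 4.25 hpf over both strains, and si:dkey-11o15.10 was at −0.61 (adjusted p = 0.262 by edgeR).

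Likeness within groups gave other genes. Over the deviations of the 24 embryos of 4.25 and 5.25 hpf from their mean of strain, stage and biological replicate, the highest r with vgll4l were 0.758 for PALM (ENSDARG00000007818), 0.734 for znf1060, 0.679 for usp4, 0.676 for DPF2 (ENSDARG00000037291) and 0.666 for ENSDARG00000110967, with a median of 0.00468 over the same 12020 genes. The 95% quantile of r over these genes was 0.382. The named genes are the highest of 12020 values, so their r is high by selection and is given with no p. The symbols PALM and DPF2 are each carried by another ID as well, so their counts are uncertain. The listed genes were spread over this measure. Of the forerunner list r was 0.586 for tbx16, 0.438 for tbxta, 0.188 for sox32, 0.0273 for ITGAV, −0.0510 for CNPY1, −0.230 for cdh1 and −0.279 for SOX17. Of the enveloping layer list it ran from −0.237 for grhl3 to 0.560 for krt8.

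Over both replicates, calls between the strains among the listed genes were made for amotl2b, krt8, klf17, cldne and lft2. The angiomotin-like gene amotl2b, whose product binds YAP in the Hippo pathway, was called higher in TL at all 4 stages, with log2 fold changes of 1.07, 1.40, 1.79 and 1.73 (adjusted p = 0.0312, 0.000266, 0.00124 and 0.0171 by edgeR). At 4.25 hpf amotl2b averaged 30.0 ± 4.77 CPM in TL embryos and 8.73 ± 5.05 CPM in AB embryos (SD, n = 6 each), and all TL embryos, with 25.1 to 37.4 CPM, were above all AB embryos, with 2.20 to 15.7 CPM. Of the enveloping layer genes, krt8 was lower in TL at 2.25 hpf (−1.87) and 3.25 hpf (−1.86), klf17 at 4.25 hpf (−0.51), and cldne at 4.25 hpf (−2.04) and 5.25 hpf (−1.21). The Nodal antagonist lft2 was higher in TL at 4.25 hpf (0.66). The share of all genes called in this fit, without the replicate block, was 17.8%, 15.7%, 20.4% and 10.7% at the 4 stages. With the replicate block these calls stood, and 4 more were made, for mxtx1 at 4.25 hpf (−1.33, adjusted p = 0.00366, against 0.0748 without the block), klf17 (−1.24, adjusted p = 0.0099) and ndr1 (−0.86, adjusted p = 0.0319) at 3.25 hpf, and foxh1, a transcription factor of Nodal signalling, at 2.25 hpf (0.41, adjusted p = 0.0187 by edgeR). The share of all genes called with the block is not given here, so the 4 added calls are no result about these lists. No tested member of the forerunner, TEAD or YAP target lists, to which amotl2b does not belong, passed in either fit. The closest was ITGAV at 5.25 hpf (−0.66, adjusted p = 0.0514 with the block by edgeR). With 2 to 7 genes tested per list and stage, a count of 0 is near the shares given for the fit without the block. It is no result about these lists. Within replicate 2 at 4.25 hpf, where vgll4l was lower in every TL embryo, krt4 (−2.50), krt8 (−2.36), krt18a.1 (−1.21), cldne (−2.52) and klf17 (−0.83) were called lower in TL and amotl2b (2.39) higher. Within replicate 1 at 4.25 hpf, where vgll4l was higher in every TL embryo, krt18a.1 (0.65), lft2 (0.79), SMAD2 (0.40) and amotl2b (1.39) were called higher in TL, and cldne (−1.87) and mxtx1 (−1.21) lower. At 5.25 hpf the calls were amotl2b (2.27) within replicate 2 and cldne (−1.41) within replicate 1. At 3.25 hpf they were amotl2b (1.46) and klf17 (−1.92) within replicate 2, beside 7.19% of all genes, and amotl2b (1.35) and krt8 (−2.20) within replicate 1, beside 6.91%. At 2.25 hpf they were tdgf1 (0.43) within replicate 2, beside 12.2%, and krt8 (−2.55) within replicate 1, beside 7.29%.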

How the data were processed

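Single whole zebrafish embryos were profiled by CEL-seq2 in 48 libraries, 6 for each of 2 strains and 4 stages. The authors deposited whole-number counts per Ensembl gene ID and embryo, 1 table per stage. Per the submitters' processing notes bcl2fastq 2.19.0.316, STAR 2.7.1a and edgeR 3.26.8 were used, with no role given. The counting program, genome build, annotation, strand and use of molecular identifiers are not given in the sources used here, so intervals and limits cover counting error only. All columns were mapped to a sample by name, and no row lacked a gene ID. A symbol was found for 29201 of 32520 IDs.

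Strain and biological replicate were taken from the labels. Counts were filtered with filterByExpr, scaled by TMM and tested with edgeR 4.0.16 (R 4.3.3) quasi-likelihood fits and Benjamini-Hochberg adjustment over all genes passing the filter. Steps used 1 fit of 48 embryos, and strain and replicate differences used 1 fit per stage. A gene was called at an adjusted p under 0.05, and for steps also at a log2 fold change of at least 1 in size. Log2 CPM used a prior count of 2. Single values were tested by exact permutation and the spread by an approximate permutation (scipy 1.17.1). Alternatives were DESeq2 1.42.0 and its size factors, no filter, 1 fit of all embryos, sums of 3 embryos, replicate blocks, a position covariate and leaving out each embryo. The scripts were tested on simulated data.

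The strains share biological replicate numbers, and per the labels the replicates were sequenced in separate runs, so the numbers pair TL and AB embryos in groups. The deviations of the paired groups correlated across genes at r = 0.259, 0.221, 0.164 and 0.457 at the 4 stages.

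vgll4l and the lists were chosen with earlier results of these data known. Named are every list member called in a comparison of vgll4l, and the 5 genes most like it by each of 2 measures, among genes that averaged 10 counts or more over the embryos of 5.25 hpf. The strain by replicate interaction, the exact tests of single differences, the blocked fit of the listed genes and the IDs with the symbol VGLL4 were added after the data were seen.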

Additional observations from a re-analysis of the deposited data

Results flagged for a closer look

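The strain difference of vgll4l at 4.25 hpf pointed one way in one biological replicate and the other way in the other. TL averaged 20.7 ± 3.82 CPM and AB 31.6 ± 5.62 CPM in biological replicate 2, whereas TL averaged 68.1 ± 5.74 CPM and AB 35.9 ± 12.01 CPM in biological replicate 1 (SD, n = 3 each). On log2 CPM the difference between the replicates differed between TL and AB by −1.59, with an exact permutation p of 0.065 over 400 labellings, or 0.26 when adjusted over the 4 stages. All 3 TL embryos lay on one side of all 3 AB embryos in each replicate. The same contrast at 5.25 hpf gave −0.32 (exact permutation p = 0.395). The labellings behind these p-values assume no replicate difference in either strain, so they are no exact tests of the interaction alone.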

How the results depend on the processing

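Among repeats with another setting, 305 kept direction and side of the threshold, 25 lost the threshold, 11 passed it and 9 changed sign. The steps from 3.25 to 4.25 and from 4.25 to 5.25 hpf were called in all 33 repeats each. The first step missed the threshold in TL alone (3.16), in AB alone (1.54) and without biological replicate 1, and ranged from 1.02 to 3.14 when a replicate or embryo was left out. The strain difference of the step from 4.25 to 5.25 hpf was 0.029 with the replicate block and ranged from −0.57 to 0.65 in the leave-outs. The block changed no call of the strain differences of vgll4l, which were 0.17 at 4.25 hpf (adjusted p = 0.683) and 0.21 at 5.25 hpf (adjusted p = 0.311) by edgeR. The strain difference at 4.25 hpf was 0.66 with position score and block, and ranged from −0.63 to 0.92 in the leave-outs. The replicate difference at 4.25 hpf was −0.18 in AB alone and 0.79 with the position score, with leave-outs from −1.17 to −0.80. At 5.25 hpf it was −0.61 in TL alone, −0.28 in AB alone, −0.44 with no filter (adjusted p = 0.0784 by edgeR) and 0.11 with the position score, with leave-outs from −0.55 to −0.38. The interaction at 4.25 hpf was −1.57 with no filter and −1.54 with DESeq2, both past the threshold, with leave-outs from −1.81 to −1.31. The spread difference was 0.590 at 4.25 hpf and 0.0744 at 5.25 hpf with no replicate block, and leave-outs at 5.25 hpf ranged from −0.183 to −0.0120. The correlation with the position score at 4.25 hpf was 0.843 in replicate 2 and 0.334 in replicate 1 with 50 genes each way, and at 5.25 hpf in replicate 1 it was 0.181 without the 2 embryos farthest from the median score. The causes were not tested.

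Counts of called genes moved too. Replicate at 4.25 hpf had 786 calls, against 1375 with DESeq2, 1394 with no filter, 288 in TL alone, 389 in AB alone and 9 with the position score. Replicate at 5.25 hpf had 1582, against 248 in TL alone, 125 in AB alone and 0 with the position score by edgeR, where 964 genes had an unadjusted p under 0.05. The interaction at 4.25 hpf had 42, against 249 with DESeq2 and 479 with no filter. Strain had 2435 calls at 4.25 hpf, against 1034 without replicate 1 and 492 in sums of 3 embryos. At 5.25 hpf it had 1238, against 2640 in the fit of 48 embryos, 479 without replicate 2, 412 without replicate 1 and 91 in sums. The steps had 116, 756 and 2046 calls, against 55 (TL alone) and 71 (AB alone) for the first, 495 (without replicate 1) and 458 (AB alone) for the second and 1339 (without replicate 1) for the third. The strain difference of the second step had 1 call, against 6 with DESeq2 and 2 with the replicate block. At 2.25 and 3.25 hpf the counts of vgll4l limit every comparison.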
